A study of Mus musculus with 3 samples.

Results

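The Ikaros family of zinc finger transcription factors was measured in sorted mouse bone marrow pre-B cells by RNA-seq. Its members are Ikzf1 (Ikaros), Ikzf2 (Helios), Ikzf3 (Aiolos), Ikzf4 (Eos) and Ikzf5 (Pegasus), taken by their names. All 5 were found among the 26286 genes of the count table. The 3 libraries form a single group, and no second condition was set against it. Donors were CAG-rtTA3;TRE-GFP-shLuc.1309 bitransgenic mice, in which a doxycycline-dependent transactivator switches on GFP linked to a control hairpin. They had received doxycycline for 3 days, and every library therefore carries the transgenes, the agent and the control hairpin. Cells were sorted as CD25+ B220+ cells with GFP and without Kit or IgM. Strain, sex and age were not given in the sources used here. Nothing says that the libraries stem from different mice, and p-values here measure only the spread between these samples, which may be technical.

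Ikaros family proteins bind DNA through a block of zinc fingers near their start and form dimers, with themselves and with each other, through a further pair of fingers at their end. Ikaros and Aiolos recruit the NuRD chromatin remodelling complex and other corepressors. In the B lineage Ikaros is required for the earliest steps, and together with Aiolos it is known for ending the proliferative phase that follows pre-B receptor assembly, for silencing the surrogate light chain genes and for opening the way to light chain recombination. Helios and Eos are best known from T cells, above all regulatory T cells, and Helios also from blood stem cells. Pegasus is the most divergent member and is made in many tissues.

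To show how near the members are in their DNA-binding part, the bases that encode 2 adjacent fingers are given for each. They were read from GENCODE M21 transcripts (GRCm38), on the coding strand from 5′ to 3′. Capitals mark the codons of the cysteines and histidines that hold the zinc. Of all adjacent finger pairs in each gene, the combination with the fewest summed differences between members was taken. The identities below therefore belong to a stretch chosen for its likeness and may not hold for other fingers. Positions count from the start of the coding sequence and run from base 499 to 645 in Ikzf1, 439 to 585 in Ikzf3, 442 to 588 in Ikzf2, 565 to 711 in Ikzf4 and 250 to 396 in Ikzf5.
Ikzf1: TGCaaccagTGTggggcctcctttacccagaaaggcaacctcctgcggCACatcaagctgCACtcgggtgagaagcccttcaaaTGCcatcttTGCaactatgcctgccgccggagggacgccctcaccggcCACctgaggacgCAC
Ikzf3: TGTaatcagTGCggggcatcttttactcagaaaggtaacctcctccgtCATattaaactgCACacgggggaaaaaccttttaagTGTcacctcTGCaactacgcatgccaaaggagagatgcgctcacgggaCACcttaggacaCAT
Ikzf2: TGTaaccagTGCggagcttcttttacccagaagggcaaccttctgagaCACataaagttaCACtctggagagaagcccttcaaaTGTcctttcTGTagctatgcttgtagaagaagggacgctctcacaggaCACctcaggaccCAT
Ikzf4: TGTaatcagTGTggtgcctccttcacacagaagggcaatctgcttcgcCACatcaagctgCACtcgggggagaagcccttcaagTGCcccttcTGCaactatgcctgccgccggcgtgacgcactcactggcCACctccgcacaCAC
Ikzf5: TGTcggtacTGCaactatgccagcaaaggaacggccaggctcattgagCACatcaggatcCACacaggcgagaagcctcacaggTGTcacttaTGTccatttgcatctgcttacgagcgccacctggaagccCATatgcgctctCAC

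In this stretch Ikzf1 and Ikzf4 differed at 24 bases, an identity of 83.7%. Ikzf1 and Ikzf3, the pair with the highest levels below, differed at 35 bases (76.2% identity), and Ikzf1 and Ikzf2 at 32 (78.2%). Ikzf5 stood apart, with 73 to 85 differences to each of the others and identities of 42.2% to 50.3%. The same spacing of cysteine and histidine codons occurred at 4 places in the coding sequences of Ikzf1, Ikzf2, Ikzf3 and Ikzf4 and at 3 in that of Ikzf5. Longer shared runs lay outside this stretch for some pairs. Over all transcripts of each gene, the longest run of bases shared by Ikzf1 and Ikzf3 was 26, and no word of 31 bases was common to them. The 1 pair that shared words of 31 bases was Ikzf2 and Ikzf4, with 3 such words and a longest shared run of 32 bases. Reads that match both Ikzf1 and Ikzf3 exactly would have to be at most 26 bases long. The read length was not given in the sources used here.

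Other genes share sequence or position with Ikzf5 above all. Of its transcripts' words of 31 bases, 16.3% also occurred on the same strand in other genes, led by Gm10356 and Gm15499, against 0 for Ikzf1 and Ikzf3. On chromosome 7, 4652 bases of the Ikzf5 exons, 81.3% of their combined length, are also covered by exons of Pstk on the opposite strand in GENCODE M21. Pstk, a kinase gene of selenocysteine synthesis, had 55, 60 and 116 counts in replicates 1, 2 and 3, or 3.92, 4.43 and 3.19 RPKM (counts per kilobase of gene, scaled to library size). The strand setting and the annotation used for counting were not given in the sources used here. For both reasons the Ikzf5 level is uncertain. For Ikzf1 and Ikzf3, both on chromosome 11, no exon of another gene overlapped. For Ikzf2 on chromosome 1 and Ikzf4 on chromosome 10 such overlaps covered 1.24% and 0.617% of the exon bases. Isoforms cannot be told apart, because the table holds 1 count per gene. This includes the short Ikaros forms that lack DNA-binding fingers.

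Libraries held between 12021576 and 32086649 counts, with replicate 3 the deepest by 2.67-fold over replicate 2. The sort was checked on some of its gate genes, and IgM and GFP were not among them. Ptprc, the gene of B220, stood at 110, 115 and 97.3 RPKM in replicates 1, 2 and 3. Il2ra, the CD25 chain, stood at 86.6, 108 and 73.1 RPKM in replicates 1, 2 and 3, and Kit, a negative gate, at 1.07, 0.870 and 0.432 RPKM. All 9 pre-B marker genes passed 1 RPKM throughout, against 42.4% of all genes in the table, with summed levels of 4341 to 4907 RPKM. The 8 T cell markers summed to between 4.85 and 5.30 RPKM, most of it Foxp3 (3.48 ± 0.48 RPKM, SD, n = 3), while the T cell receptor chain genes Cd3e, Cd3d and Cd3g stayed between 0.0787 and 0.565 RPKM. Of the 7 stem and progenitor markers, Mecom had 0 counts in every library, and Meis1 alone exceeded 1 RPKM, with summed levels of 1.77 to 2.51 RPKM. The 5 NK cell markers summed to between 3.47 and 4.80 RPKM, mostly Klrb1c, and the 6 erythroid and megakaryocyte markers to between 4.66 and 5.61 RPKM, mostly Hba-a1. The 6 mature B cell markers summed to between 111 and 133 RPKM, nearly all from Ighd and Cd22. The 8 neutrophil markers summed to 1252, 1516 and 2232 RPKM in replicates 1, 2 and 3, led by S100a9, and the 5 basophil and mast cell markers to 3.38, 7.06 and 23.5 RPKM. Both sums were highest in replicate 3. The part of these other cells in the family's levels was not tested. Fewer cells of a type and less RNA per cell cannot be told apart in bulk libraries.

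Ikaros led the family. Ikzf1 (Entrez 22778), the founding member, stood at 254.5 RPKM in replicate 1, 276 RPKM in replicate 2 and 264 RPKM in replicate 3, from 16320, 17077 and 43884 counts. The mean was 265 ± 10.8 RPKM (SD, n = 3), which ranked 192 among all genes of the table. Of the 17423 genes with a count, 98.9% lay below it. The 3 libraries were close, with a coefficient of variation of 4.07%.

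Aiolos came next. Ikzf3 (Entrez 22780), the member tied most closely to the pre-B to B cell steps, stood at 159, 191 and 156 RPKM in replicates 1, 2 and 3, from 8085, 9358 and 20589 counts. Replicate 2 was the highest, and the other 2 libraries lay near each other. The mean was 169 ± 19.1 RPKM (n = 3), rank 355, with 97.96% of counted genes below.

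Pegasus had a middling level. Ikzf5 (Entrez 67143) stood at 11.99, 12.8 and 12.5 RPKM in replicates 1, 2 and 3, from 654, 674 and 1761 counts. Its mean of 12.4 ± 0.41 RPKM (n = 3) exceeded 63.8% of counted genes, and it had the smallest coefficient of variation in the family, 3.31%.

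Helios and Eos were at trace levels. Ikzf2 (Entrez 22779) had 17, 13 and 36 counts over a gene length of 9424 bases, or 0.145, 0.115 and 0.119 RPKM, with a mean of 0.126 ± 0.016 RPKM (n = 3). Ikzf4 (Entrez 22781) had 2 counts in replicate 1 and 1 count in each of replicates 2 and 3, or 0.0450, 0.0233 and 0.00868 RPKM. With so few counts its exact 95% Poisson interval in replicate 1 ran from 0.00545 to 0.162 RPKM, which includes the value of every other library. The interval of Ikzf2 in that library, 0.0846 to 0.232 RPKM, overlapped it. Intervals cover counting error only.

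**Figure D1:**
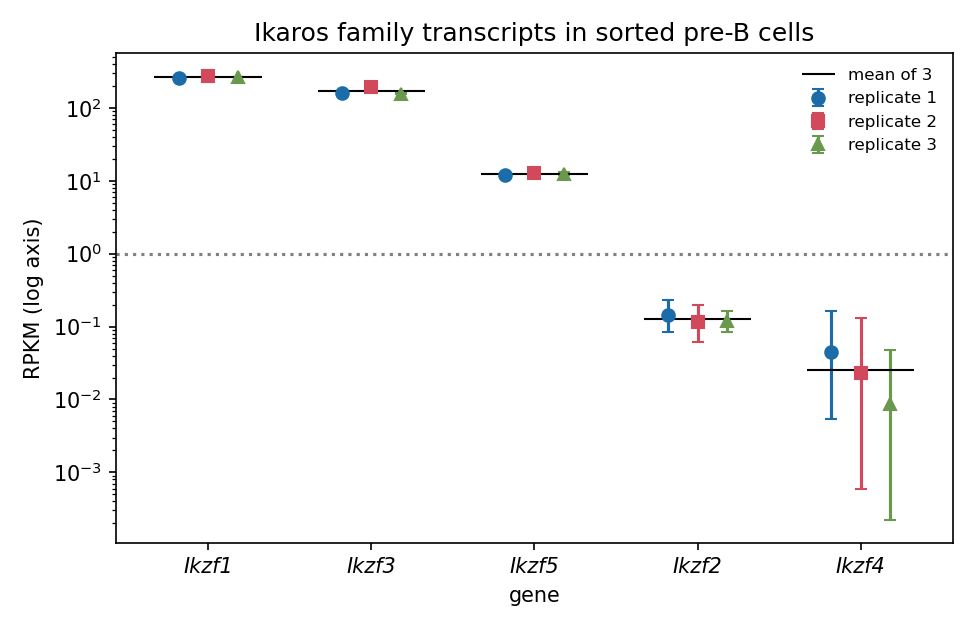
RPKM on a log axis of the 5 Ikaros family genes in each of the 3 libraries (symbols), with exact 95% Poisson intervals of the counts as error bars and the mean as a black line. The dotted line marks 1 RPKM. Ikzf1, Ikzf3 and Ikzf5 lie above it in every library, whereas Ikzf2 and Ikzf4, at 0.126 and 0.0257 RPKM on average, lie below.

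In each of the 3 libraries 3 of the 5 members reached 1 RPKM, against 42.4% of the 26286 genes in the table. The summed level of the family was 425, 480 and 433 RPKM in replicates 1, 2 and 3. Ikzf1 made up 59.8%, 57.6% and 61.0% of it, and Ikzf3 37.3%, 39.7% and 36.1%. Together these 2 genes held 97.2 ± 0.11% of the family's level (SD, n = 3). Ikzf5 held 2.79 ± 0.11%, Ikzf2 0.0285 ± 0.0052% and Ikzf4 0.0058 ± 0.0044%. The Ikzf4 values rest on 4 counts, and without replicate 1 its share was 0.00343% and its mean level 0.0160 RPKM, against 0.0257 RPKM. The share of Ikzf1 was lowest, and that of Ikzf3 highest, in replicate 2.

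The 10 pairs of members were then compared within libraries, on the log2(RPKM + 0.5) scale. Every pair kept the order Ikzf1, Ikzf3, Ikzf5, Ikzf2, Ikzf4 in 3 of 3 libraries. With 3 libraries the exact sign-flip test, two-sided, can give no p below 0.25, and each pair had that value (0.25 after Benjamini-Hochberg adjustment over the 10). So no difference could pass 0.05, and sizes are given beside their spread. Ikzf1 exceeded Ikzf3 by 0.66 ± 0.11 (range 0.53 to 0.76), a 1.61-fold ratio of pooled counts per length with a 95% counting interval of 1.59 to 1.63. Ikzf3 exceeded Ikzf5 by 3.70 ± 0.13, or 13.2-fold (interval 12.7 to 13.7). Ikzf5 exceeded Ikzf2 by 4.37 ± 0.08, or 100.5-fold (78.7 to 130.2). Intervals of pooled ratios cover counting error only and leave out the spread between libraries.

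The last neighbours, Ikzf2 and Ikzf4, differed by only 0.25 ± 0.03 on that scale, since both lie far under the added 0.5. Their pooled ratio was 6.27, with an interval of 2.34 to 23.7 that rests on 66 and 4 counts. The pooled ratio of Ikzf1 to Ikzf2 was 2137 (1680 to 2764), and that of Ikzf1 to Ikzf4, which spans the family, was 13397 (5232 to 49169). The distance from Ikzf1 to Ikzf3 depends on the gene length used. With exon lengths merged over all GENCODE M21 transcripts, 5777 bases for Ikzf1 and 8754 for Ikzf3 in place of the deposited 5163 and 4098, the means were 237 and 78.9 RPKM. The order did not change. Counts were not recomputed over the merged exons, which may hold bases where no reads were counted.

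Spread between the libraries was tested across 12147 genes, of which 4 were members. Ikzf4 did not pass the filter on low counts. A chi-square test with Benjamini-Hochberg adjustment found spread above Poisson noise in 54.6% of these genes, and so it did in Ikzf1 (adjusted p = 8.27e-12) and Ikzf3 (adjusted p = 2.27e-57), 2 of 4 members. Ikzf5 (adjusted p = 0.557) and Ikzf2 (0.798) did not pass. This test finds small spreads more readily in genes with many counts. Ikzf1 passed with 77281 counts in all and a coefficient of variation of 4.07%. Ikzf2 had 66 counts and did not pass, with a coefficient of variation of 13.0%. The Ikzf3 call rested on replicate 2, since without it the adjusted p was 0.341. Without replicate 2 or replicate 3, 4256 and 3145 genes were called in all, against 6627 with the 3 libraries.

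Set against genes of like abundance, none of the 4 members passed as more variable. In a quasi-likelihood fit in edgeR with only an intercept the adjusted p was 0.996 for each, and the unadjusted p was 0.749 for Ikzf1, 0.220 for Ikzf3, 0.865 for Ikzf5 and 0.813 for Ikzf2, so that 0 of 4 passed 0.05 either way. Of all genes 0.0165% passed the adjusted and 5.30% the unadjusted threshold. Ikzf3 had a wider spread than Ikzf1 and Ikzf5. Its coefficient of variation of 11.4% exceeded that of 78.0% of the 449 tested genes within 1 log2 unit of its mean CPM (counts scaled to library size, with no length), whose median was 6.67%. For Ikzf1 the matching figure was 19.7% of 137 genes and for Ikzf5 13.8% of 4155 genes.

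**Figure D2:**
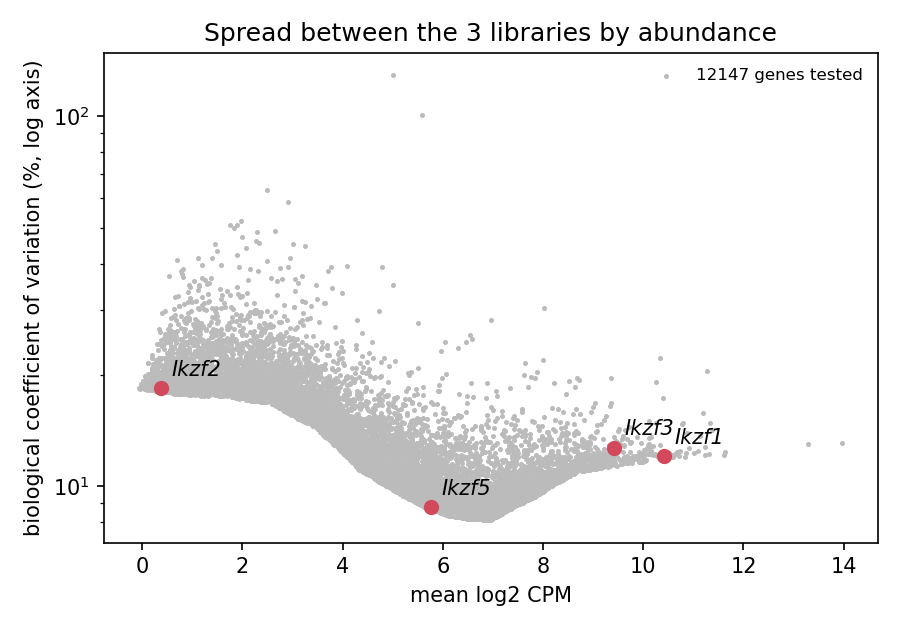
Moderated biological coefficient of variation (percent, log axis) from edgeR against mean log2 CPM for the 12147 tested genes (grey), with the 4 tested family members in red. Ikzf1, Ikzf5 (8.78%) and Ikzf2 (18.4%) lie along the lower edge of the cloud, and Ikzf3, at 12.7%, slightly above it.

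The ratio of Aiolos to Ikaros varied between the libraries. Ikzf3 stood at 0.624 of the Ikzf1 level in replicate 1 (exact 95% binomial interval 0.608 to 0.641), 0.690 in replicate 2 (0.673 to 0.708) and 0.591 in replicate 3 (0.581 to 0.601). None of these intervals overlap, but they cover counting error only. Neither gene passed above as more variable than genes of like abundance. Replicate 2 had the highest ratio and replicate 3 the lowest. Other transcripts moved between the libraries as well. In replicate 2, 8 of the 9 pre-B markers also had their highest level, against 36.5% of all tested genes. Among them, Pax5, the lineage's commitment factor, chosen after its values were seen, stood at 235, 287 and 248.5 RPKM in replicates 1, 2 and 3. The proliferation genes Mki67 and Top2a, added after their values were seen, were lowest in replicate 2, at 269, 212 and 295 RPKM and at 344, 277 and 388 RPKM. The part of these differences in the ratio was not tested.

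The genes whose deviations over the 3 libraries lay nearest to a member's were found among tested genes within 1 log2 CPM of it. The measure was the Euclidean distance of log2 CPM deviations from the gene's own mean. For Ikzf3 they were Baz2a, a chromatin remodelling subunit (distance 0.019), and Map3k1, a kinase of the JNK cascade (0.024), against a median of 0.253 over 449 candidates. Like Ikzf3, at -0.08, 0.18 and -0.10, both were high in replicate 2, which follows from the way they were picked. For Ikzf1 they were Arhgap45 (0.012) and Fam107b (0.022), for Ikzf5 Map2k5 (0.0011) and Bcl10 (0.0013), and for Ikzf2 Chchd6 (0.011) and the small nucleolar RNA Snora68 (0.020). A profile over 3 libraries has few degrees of freedom. The nearest genes were picked by this same distance from up to 4155 candidates, so for every member closeness is a description only.

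**Figure D3:**
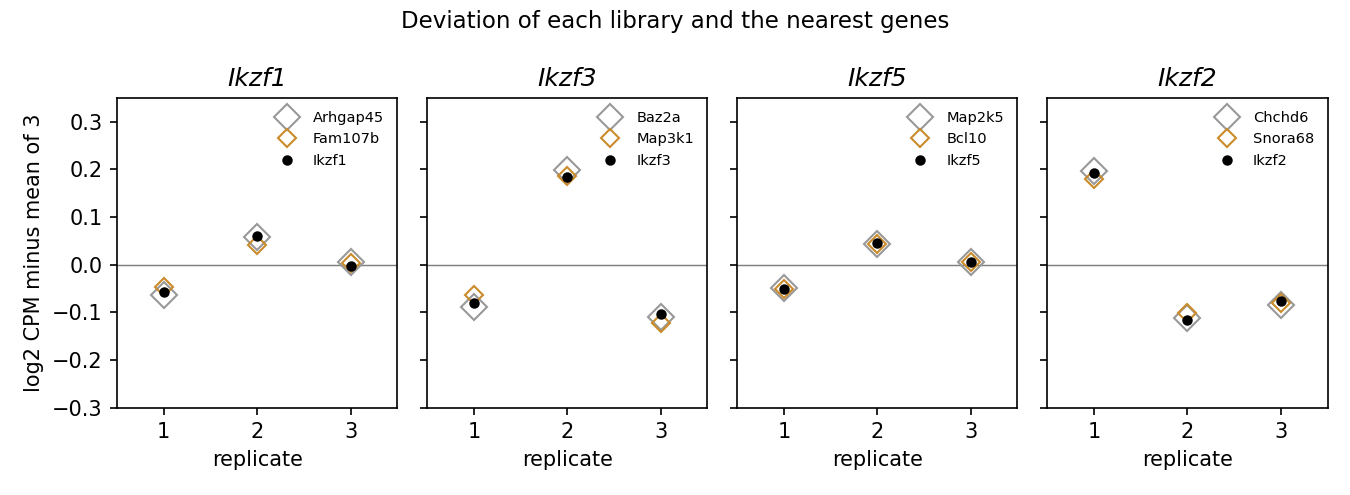
Deviation of log2 CPM from the mean of 3 libraries, by replicate, for each tested member (black dots) and its 2 nearest genes (open diamonds). Ikzf3 reached 0.18 in replicate 2, Ikzf1 and Ikzf5 stayed within 0.06 and 0.05 of their means, and Ikzf2, with few counts, was highest in replicate 1 at 0.19.

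CASAVA, the run-processing software, was version 1.8.0 for replicate 3 and 1.8.2 for replicates 1 and 2, the sole technical label that differed. Its effect cannot be told apart from that of the library. In edgeR's quasi-likelihood test of replicate 3 against the others none of the 4 tested members passed, with 0.0741% of all genes called (0.0576% higher and 0.0165% lower in replicate 3). DESeq2 also called none of them, and 0 of 4 had an unadjusted p under 0.05, against 9.62% of all genes. Ikzf3 was at -0.16 ± 0.15 (log2, SE, adjusted p = 0.778), at -0.28 without replicate 1 and at -0.02 without replicate 2. Ikzf2 was at -0.13 ± 0.38, and at -0.42 with replicate 3 thinned to the smallest total. Ikzf1 was at -0.01 ± 0.12 and Ikzf5 at 0.01 ± 0.13, changes smaller than their errors.

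The genes around the family were described from lists of partners, modifiers, upstream factors and known targets. Corepressor partners were present at high levels. Of 18 genes, 17 passed 1 RPKM throughout, against 42.4% of all genes in the table. The list's median was 5.67 ± 0.04 on the log2(RPKM + 0.5) scale, where the 17423 counted genes had a median of 2.56. The remodelling ATPase Smarca4 (494 ± 4.98 RPKM) was highest, above Ikzf1 itself, followed by the corepressor Ctbp1 (151 ± 9.12 RPKM). Its paralog Ctbp2 was the lowest, at 0.354 ± 0.044 RPKM, and Mta3, a NuRD subunit gene, came next at 16.3 ± 2.43 RPKM. Chd4, the NuRD ATPase that copurifies with Ikaros, stood at 119, 127 and 137 RPKM in replicates 1, 2 and 3, and was lowest in replicate 1. In the comparison of replicate 3 with the others 0 of the 18 passed (edgeR), against 0.0741% of all tested genes. Their median was 0.15, against -0.01 for all tested genes.

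Enzymes that modify Ikaros were all expressed, with a list median of 6.75 ± 0.01. Of the 8, 8 passed 1 RPKM throughout, against 42.4% of all genes in the table. Casein kinase 2, which lowers DNA binding by Ikaros, had Csnk2a1 at 25.6 ± 0.83, Csnk2a2 at 14.5 ± 1.35 and its regulatory subunit Csnk2b at 97.5 ± 7.56 RPKM. Genes of the opposing protein phosphatase 1 were higher than both catalytic subunits, with Ppp1ca at 433 ± 24.3, Ppp1cc at 177 ± 7.35 and Ppp1cb at 109 ± 1.21 RPKM. The tyrosine kinase Syk, which acts below the pre-B receptor, stood at 623 ± 26.1 RPKM and Btk at 103.5 ± 3.20 RPKM.

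All 5 genes of the cereblon ubiquitin ligase, through which thalidomide-type drugs remove Ikaros and Aiolos in human cells, exceeded 1 RPKM. The share of all genes in the table at 1 RPKM in every library was 42.4%. Crbn, the substrate receptor, stood at 22.01 ± 1.63 RPKM, the adaptor Ddb1 at 93.5 ± 4.23, Rbx1 at 25.1 ± 0.85, Cul4b at 20.7 ± 1.31 and Cul4a at 17.8 ± 0.48 RPKM. Among upstream factors, Irf4, known to raise Ikaros and Aiolos in pre-B cells, stood at 252, 245 and 222 RPKM in replicates 1, 2 and 3. Its relative Irf8 was at 74.7 ± 10.9 RPKM. The ETS factor Spib was at 868 ± 28.4 RPKM and its relative Spi1 at 75.9 ± 9.41 RPKM.

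Genes known to be restrained by Ikaros or Aiolos spanned a wide range. Of 14, 12 passed 1 RPKM throughout, against 42.4% of all genes in the table. The list median was 2.65 ± 0.15, near the 2.56 of all counted genes, and 4 of the 14 exceeded the mean of Ikzf5. The highest was Ccnd3, the cyclin of pre-B cell division, at 268.5, 238 and 372 RPKM in replicates 1, 2 and 3, followed by the survival gene Bcl2l1 at 123 ± 3.88 RPKM. The lowest were Ptk2, the focal adhesion kinase gene, at 0.561 ± 0.151 RPKM and Myc, the driver of cell growth, at 1.54, 0.904 and 2.11 RPKM. The surrogate light chain genes Igll1 and Vpreb1 lay between, at 27.7, 32.2 and 42.3 RPKM and at 20.1, 24.7 and 30.2 RPKM. Vpreb2, a near copy of Vpreb1, was at 1.64 ± 0.32 RPKM, and how reads were split between the copies is uncertain. Of the 13 tested genes 9 were highest in replicate 3, against 35.1% of all tested genes. In the edgeR comparison 0 of the 13 passed, against 0.0741% of all tested genes, and their median was 0.24 (log2). Of the 18 corepressor partners, 12 were also highest in replicate 3. The neutrophil markers had a median of 0.52 in the edgeR comparison. Of the 8, 5 were highest in replicate 3, 2 in replicate 1 and 1 in replicate 2. Their sum and that of the basophil and mast cell markers were also highest in replicate 3. The part of these cells in the values of the restrained genes was not tested.

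Genes known to be promoted by Ikaros lay higher, with a list median of 6.60 ± 0.09. Of the 10, 9 passed 1 RPKM throughout, against 42.4% of all genes in the table. The recombinase gene Rag1 was highest, at 424, 442 and 336 RPKM in replicates 1, 2 and 3, then the pre-B receptor adaptor Blnk at 227.5, 286 and 263 RPKM. Lowest were the cytokine receptor Flt3, at 0.528, 0.411 and 1.06 RPKM, and the cannabinoid receptor Cnr2, at 14.4 ± 0.64 RPKM. Of the 10, 6 were highest in replicate 2, against 36.5% of all tested genes. So were 3 of the 4 tested members, Ikzf1, Ikzf3 and Ikzf5. Rag1 is also among the pre-B markers above, of which 8 of 9 were highest in replicate 2. Txnip, which limits glucose uptake, stood at 138, 193 and 107 RPKM. In the comparison of replicate 3 with the others 0 of 10 passed, against 0.0741% of all tested genes, with a median of -0.05. Genes of both target lists are under many other factors, and this design has no library with less Ikaros or Aiolos.

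**Figure D4:**
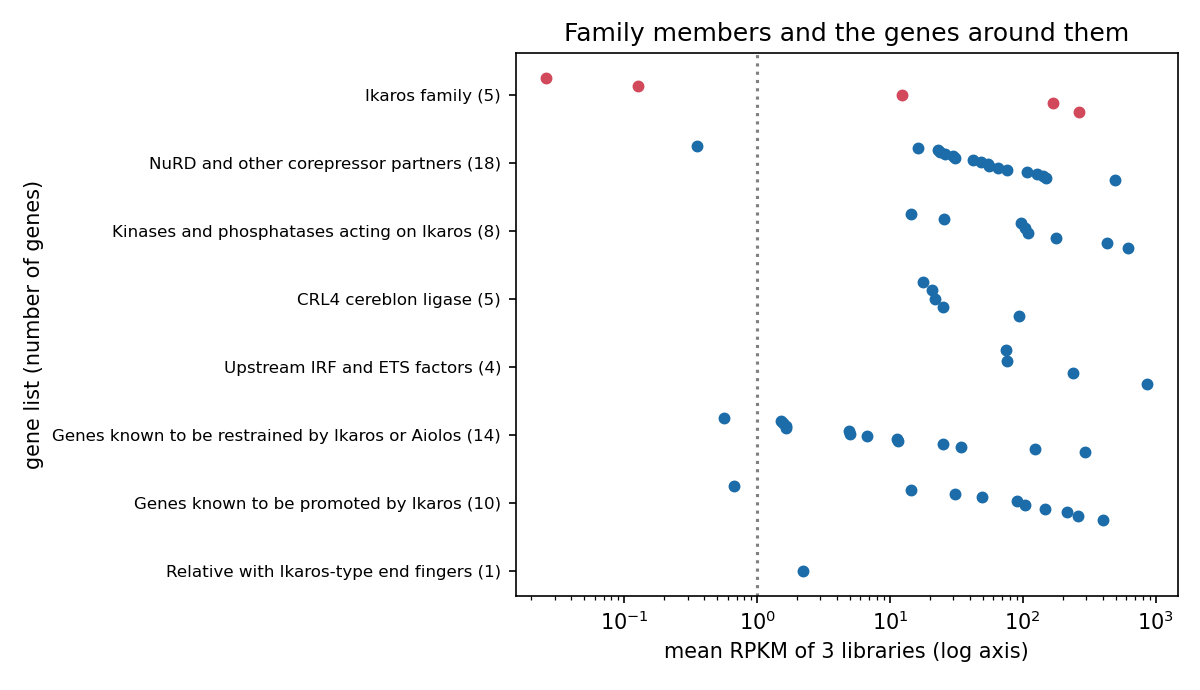
Mean RPKM over 3 libraries (log axis) of the 5 family members (red) and of each gene in 7 lists around them (blue), with the dotted line at 1 RPKM and points offset vertically so that they can be seen. The family spans from 0.0257 to 265 RPKM, and the corepressor list lies between 16.3 and 494 RPKM apart from Ctbp2 at 0.354 RPKM.

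Trps1, a GATA-type factor that shares the Ikaros type of end fingers and is not a member, stood at 2.06, 2.58 and 1.99 RPKM in replicates 1, 2 and 3. This was between Ikzf5 and Ikzf2 in level.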

How the data were processed

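RNA-seq of 3 pre-B cell libraries, all in 1 group, was used. Each of the deposited tables gives unscaled counts by Entrez gene together with a gene length in bases. CASAVA and featureCounts and the build mm9 are named in the submitters' processing notes. The aligner, annotation, strand setting and read length were not given in the sources used here. The series table and the sample files held equal counts for all 26286 genes. Replicates are numbered as in the titles.

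Symbols were matched by Entrez identifier to RefSeq genes of GRCm38.p6 for 24176 genes. That build differs from the files' build, so no genome coordinates are printed. All 119 list genes matched. Counts were scaled by TMM in edgeR 4.0.16 (R 4.3.3, limma 3.58.1), and RPKM was computed here from counts and deposited lengths. Tests used the 12147 genes kept by filterByExpr (minimum count 10, total 15), with Benjamini-Hochberg adjustment over all of them and a threshold of 0.05. They were also run on simulated data with known answers. The planted changes and spreads there were larger than those of the tested members, so power at the members' sizes was not shown. Deviations used log2 CPM with a prior count of 2. Named are the members, the 2 highest and 2 lowest genes of each list (all of lists of at most 8), leading or absent markers, genes of the sort gate and the 2 nearest genes of each tested member. Chd4, Igll1, Vpreb1, Vpreb2, Txnip, Pax5, Mki67, Top2a and Pstk were chosen after their values were seen. Members and lists were chosen with earlier results of these data known. Alternatives were other units, lengths, scalings, pseudocounts and filters, DESeq2 1.42.0, a robust fit, a thinned replicate 3 and leaving out each replicate. Figures were drawn with matplotlib 3.10.9.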

Additional observations from a re-analysis of the deposited data

How the results depend on the processing

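All 90 recomputed differences between members kept their direction, but only CPM and merged exon lengths could have reversed one. The other settings scale whole libraries, add a constant or drop 1 of 3 libraries that all had the same order. In detection, 3 members reached the minimum level at 0.5 and 5 RPKM and without any replicate. With TPM the levels of Ikzf1, Ikzf3, Ikzf5, Ikzf2 and Ikzf4 were 628, 399, 29.4, 0.299 and 0.0607, and with CPM, which ignores length, 1368, 691, 54.5, 1.19 and 0.0918. With merged exon lengths and unchanged counts the RPKM of Ikzf1, Ikzf3, Ikzf5 and Ikzf2 was 237, 78.9, 9.53 and 0.103, and that of Ikzf4 0.0153. By CPM the shares of Ikzf1, Ikzf3, Ikzf5 and Ikzf2 were 64.8%, 32.6%, 2.58% and 0.0567%, and by merged exon lengths those of Ikzf1, Ikzf3 and Ikzf5 were 72.8%, 24.2% and 2.93%.

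Genes differing beyond Poisson noise numbered 3145 to 5590 with a replicate left out, against 6627. Those more variable than like genes numbered 2, but 46 with every counted gene, 0 in a robust fit, and 2 to 44 with a replicate left out. The comparison of replicate 3 called 9 genes, 23 without scaling, 36 with DESeq2 and 0 with every counted gene or with replicate 3 thinned. The cause was not tested. In none of these fits was a member called for spread beyond like genes or in the comparison of replicate 3. Differences of Ikzf1 and Ikzf5 in that comparison were near 0 and turned sign: Ikzf1 to 0.000319 without scaling and 0.00897 with thinning, Ikzf5 to -0.0531 with thinning. Thinning moved Ikzf2 to -0.424 and Ikzf3 to -0.172. Without replicate 1 or 2, which leaves 1 library a side and no test, the differences ranged from -0.0592 to 0.0538 for Ikzf1, -0.0350 to 0.0553 for Ikzf5 -0.207 to 0.0334 for Ikzf2 and -0.283 to -0.0246 for Ikzf3. Without replicate 3 there was no such comparison. In a test of every counted gene, 17423 in all, Ikzf4 did not pass for Poisson noise (adjusted p = 0.476). No paired analysis was possible because there is 1 group. Depth limits Ikzf2 and Ikzf4 most, at 66 and 4 counts in all.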
